A study of Mus musculus with 10 samples.

Results

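The conjugating enzymes of the jejunum were measured in mice whose gut epithelium had lost Pcyt1a, the gene for the enzyme that limits the rate at which phosphatidylcholine is built from choline. The genes were chosen by symbol, as UDP-glucuronosyltransferases (UGT), glutathione S-transferases (GST), microsomal glutathione S-transferases (MGST) and sulfotransferases (SULT), where a probe set was annotated to exactly 1 gene. There were 53 of them among 22180 genes tested, namely 11 UGT, 18 GST, 3 MGST and 21 SULT genes. Each was read by 1 probe set. No Ugt1 gene was among them, so the UGT counts cover Ugt2, Ugt3 and Ugt8 genes only. Probe sets annotated to several UGT genes are given at the end. The knockout group comprised 5 samples of genotype Pcyt1aLoxP/LoxP;VilCreERT2, numbered 1 to 5, and the control group 5 samples of genotype Pcyt1aLoxP/LoxP, numbered 6 to 10. All 10 came from female mice aged 10 to 12 weeks that had received tamoxifen for 5 days and a high fat diet for 4 days and had then been fasted overnight. VilCreERT2 is a Cre recombinase that tamoxifen switches on and that is driven by the promoter of villin, a gene of gut epithelial cells, so Pcyt1a is not targeted in muscle, stroma, vessels and immune cells of the same 3 cm piece. One label field of the controls also calls them deficient in phosphatidylcholine synthesis, and the series text speaks of re-feeding, so groups were taken from titles and genotypes. The labels give no separate animal, litter or batch for a sample, so a p-value covers only the variation among these 10 samples, which may be technical.

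Phase II enzymes attach a large polar group to drugs, dietary compounds, steroids and bile pigments. UGTs transfer glucuronic acid from UDP-glucuronic acid inside the endoplasmic reticulum, cytosolic GSTs couple glutathione to electrophiles such as lipid peroxidation products, and cytosolic SULTs transfer sulfate from the donor PAPS. In the small intestine these enzymes sit mainly in absorptive enterocytes of the villus, where they act on swallowed compounds before these reach the liver, and many of them are more abundant in the upper than in the lower part of the gut.

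The targeted gene Pcyt1a fell in knockouts with no overlap of the groups, at 7.46 ± 0.25 against 9.39 ± 0.17 mean log2 intensity (SD, n = 5 each; log2 fold change -1.93, limma adjusted p = 9.57685e-05). All 12 enterocyte markers were measured, and each had a mean log2 intensity of at least 12.33, above the upper quartile of all genes at 7.54. Over all genes, 6 passed an adjusted p of 0.05 (0.0271%), 3072 had an unadjusted p under 0.05 (13.9%), and the values of the groups did not overlap for 577 (2.6%). Arrays stood apart within both groups. Smooth muscle markers, as a score centred on the 10 arrays, were highest on knockout 1 (0.88) and controls 7 (2.90) and 9 (1.66), and Paneth cell markers were lowest on knockout 2 (-1.49) and controls 6 (-1.57) and 8 (-0.78). A piece of gut is a mixture of cells, in which fewer cells of a type and less RNA per cell cannot be told apart.

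None of the 53 conjugating enzymes passed the test between knockout and control jejunum. By limma, 0 had an adjusted p under 0.05, and the smallest was 0.227. At an unadjusted p under 0.05 there were 5, or 9.43%, against 13.9% of all genes, with 2 higher and 3 lower in knockouts (8.29% and 5.56% of all genes). Groups overlapped for every member, whereas 2.6% of all genes had groups apart (1.64% higher and 0.965% lower in knockouts). The median log2 fold change, knockout minus control, was -0.04 over the members and -0.01 over all genes. A log2 fold change of 0.5 or more in size was found for 1 of 53 members (1.89%) and for 4.13% of all genes.

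The 4 families lay on different sides of 0. Of the UGTs, 10 of 11 had a negative log2 fold change (median -0.05), and of the SULTs 16 of 21 (median -0.11). Of the GSTs, 13 of 18 had a positive value (median 0.08), as did 2 of 3 MGSTs (median 0.03). Over all genes 46.8% were positive and 53.2% negative, but this share varied with intensity. Of the 10336 genes with a mean log2 intensity of at least 6, 57.4% were positive (median 0.03). Such a mean was found for 16 of the 18 GSTs, 13 of them positive, and for 5 of the 21 SULTs, 4 of them negative. The UGT count was not stable: 6 of 11 were negative without knockout 1 or without control 8, 8 with median centring or quantile normalisation, and 4 with a score of proximal gut markers as covariate, where the median was 0.09. Among the 4 UGTs with a mean log2 intensity of at least 6 the median was -0.32. Over the same alternatives without an intensity filter, 11 to 15 of 18 GSTs were positive and 13 to 17 of 21 SULTs negative. The medians were small beside the spread of the arrays. The mean of the UGTs, each centred on its own mean, was -0.06 ± 0.27 on knockout arrays and 0.06 ± 0.26 on control arrays (SD, n = 5 each, log2 units). For the GSTs the corresponding values were 0.03 ± 0.18 and -0.03 ± 0.21, for the MGSTs 0.04 ± 0.09 and -0.04 ± 0.07, and for the SULTs -0.07 ± 0.13 and 0.07 ± 0.12. Knockout and control arrays overlapped in each of these 4 scores. Differences between families were not tested.

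**Figure D1:**
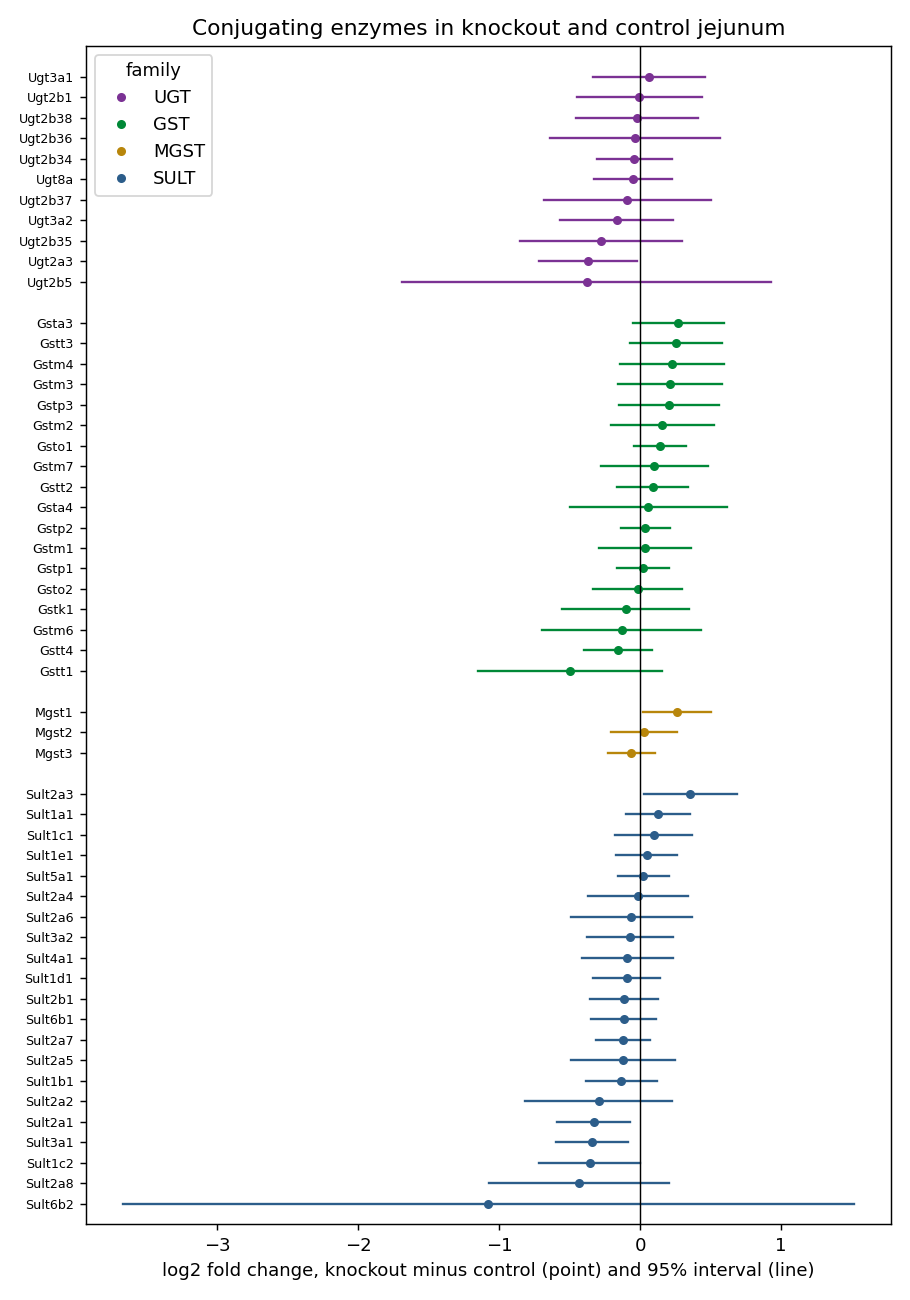
Log2 fold change of each of the 53 conjugating enzymes, knockout minus control, with points for the estimate and lines for the 95% interval, grouped by family. The intervals of 48 members include 0, and Sult6b2 and Ugt2b5 have the widest intervals.

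How far a difference can be bounded varied between the families. The 95% interval of the log2 fold change lay within 0.5 of 0 for 29 of 53 members and within 1 for 49. By family the first count was 5 of 11 UGTs, 8 of 18 GSTs, 2 of 3 MGSTs and 14 of 21 SULTs. Over all genes 71.3% had an interval within 0.5 of 0. Gstp1, the pi class GST, had an estimate of 0.02 (95% interval -0.16 to 0.21), and Mgst3, a membrane enzyme of the same glutathione chemistry, -0.06 (-0.23 to 0.10), so differences beyond these bounds fell outside the intervals. The interval of Sult6b2 ran from -3.67 to 1.52 and that of Ugt2b5 from -1.69 to 0.93.

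Of the 11 UGTs read by a single-gene probe set, Ugt2a3 alone had an unadjusted p under 0.05. Its human counterpart glucuronidates bile acids. It read 10.09, 10.78, 10.03, 10.36 and 10.67 on knockouts 1 to 5, against 10.60, 10.51, 11.01, 10.90 and 10.76 on controls 6 to 10. Knockouts 1, 3 and 4 lay below every control, and knockouts 2 and 5 lay among them. The log2 fold change was -0.37 (SE 0.16, limma adjusted p = 0.330). All 7 Ugt2b genes had negative values, several of which turned under other settings, with a median of -0.04, and 0 of the 7 had a p under 0.05. These 7 lie on 1 chromosome and arose by duplication, so a probe set of one may read its neighbours in part. Ugt2b34 averaged 12.20 ± 0.18 in knockouts, against 12.24 ± 0.22 in controls (SD, n = 5 each), Ugt2b35 7.86 ± 0.44 and 8.14 ± 0.54, and Ugt2b36 5.57 ± 0.53 and 5.61 ± 0.51. Their group differences were smaller than the SD within either group. Ugt8a, which makes galactosylceramide from UDP-galactose and so conjugates no drug, had a log2 fold change of -0.05 (SE 0.13). The window around the start site of Ugt2a3 is shown because this gene had the smallest p of its family. It is GRCm38.p6 chr5:87337146-87337445 on the minus strand, printed 5′ to 3′ from 250 bases before to 50 after the start in RefSeq, and capitals mark a match to the CDX motif TTTATNG.
Ugt2a3: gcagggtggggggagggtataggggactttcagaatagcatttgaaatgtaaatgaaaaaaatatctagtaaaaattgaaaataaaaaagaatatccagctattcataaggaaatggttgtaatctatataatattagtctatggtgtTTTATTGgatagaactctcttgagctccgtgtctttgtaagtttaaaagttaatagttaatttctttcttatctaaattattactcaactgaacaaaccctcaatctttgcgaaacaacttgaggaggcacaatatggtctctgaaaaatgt

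The GSTs gave no member with an unadjusted p under 0.05, although most estimates were above 0. The alpha class has 2 single-gene probe sets. Gsta3 read 6.10, 6.48, 6.28, 6.20 and 6.06 on knockouts 1 to 5, against 6.34, 5.67, 6.25, 5.79 and 5.71 on controls 6 to 10. All 5 knockouts lay above controls 7, 9 and 10, while controls 6 and 8 lay among the knockouts. Its log2 fold change was 0.27 (SE 0.15, limma adjusted p = 0.442). Gsta4, which conjugates the lipid peroxidation product 4-hydroxynonenal, averaged 9.53 ± 0.29 in knockouts, against 9.47 ± 0.61 in controls (SD, n = 5 each). In the mu class 5 of 6 members had positive values, with a median of 0.13. Gstm3 averaged 11.30 ± 0.26 in knockouts and 11.09 ± 0.34 in controls, and Gstm1 8.43 ± 0.24 and 8.40 ± 0.28. The 3 pi class members were at 0.02 (Gstp1), 0.04 (Gstp2) and 0.21 (Gstp3). Gsto1, an omega class enzyme that reduces dehydroascorbate and mixed disulfides, was at 0.14 (SE 0.08), and Gstk1, the kappa class enzyme of mitochondria and peroxisomes, at -0.10 (SE 0.21).

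The theta class was split. Gstt3 was at 0.26 (SE 0.15) and Gstt2 at 0.09 (SE 0.12), while Gstt4 was at -0.16 (SE 0.11) and Gstt1, whose human counterpart acts on small halogenated compounds, at -0.50 (SE 0.30, limma adjusted p = 0.492). Gstt1 read 7.72, 8.92, 7.75, 8.65 and 7.87 on knockouts 1 to 5, against 9.20, 8.62, 9.27, 8.38 and 7.93 on controls 6 to 10. Knockouts 1, 3 and 5 lay below every control and knockouts 2 and 4 above 2 or more of them. Without knockout 2 its log2 fold change was -0.68 (limma adjusted p = 0.273).

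Mgst1, which detoxifies lipid hydroperoxides and electrophiles in the endoplasmic reticulum and the outer mitochondrial membrane, was the member of its family with the smallest p. It read 8.78, 8.35, 8.75, 8.49 and 8.70 on knockouts 1 to 5, against 8.17, 8.39, 8.26, 8.38 and 8.56 on controls 6 to 10. Knockouts 1, 3 and 5 lay above every control, and knockouts 2 and 4 lay within the control range. The log2 fold change was 0.26 (SE 0.11, limma adjusted p = 0.316). Mgst2, which can make leukotriene C4, averaged 9.54 ± 0.14 in knockouts and 9.51 ± 0.18 in controls, and Mgst3 10.21 ± 0.06 and 10.27 ± 0.08 (SD, n = 5 each). The core of the antioxidant response element, TGACNNNGC on either strand, was in windows of 3 members (6.52%, against 14% of all genes with a window). Of these the window of Gstm7 is not printed. Those of Mgst1 and Gsta3 are shown, with the core in capitals. They are GRCm38.p6 chr6:138140277-138140576 on the plus strand, the first of 2 windows of Mgst1 in RefSeq, and chr1:21240335-21240634 on the plus strand, printed as above.
Mgst1: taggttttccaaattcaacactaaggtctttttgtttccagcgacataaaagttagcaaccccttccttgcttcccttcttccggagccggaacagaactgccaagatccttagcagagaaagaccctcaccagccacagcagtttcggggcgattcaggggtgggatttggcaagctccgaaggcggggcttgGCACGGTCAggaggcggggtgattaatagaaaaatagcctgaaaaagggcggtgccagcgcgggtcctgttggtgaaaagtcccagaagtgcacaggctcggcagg
Gsta3: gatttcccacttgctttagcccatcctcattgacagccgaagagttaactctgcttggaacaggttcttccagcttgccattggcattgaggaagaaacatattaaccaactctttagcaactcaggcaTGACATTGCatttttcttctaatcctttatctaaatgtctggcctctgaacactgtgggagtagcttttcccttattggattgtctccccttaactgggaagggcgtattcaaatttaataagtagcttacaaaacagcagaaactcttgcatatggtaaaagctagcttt

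Among the SULTs, 3 members had an unadjusted p under 0.05, in both directions, and this share of 14.3% was close to the 13.9% of all genes. Sult3a1, an amine sulfotransferase, read 1.70, 2.17, 1.67, 1.85 and 1.70 on knockouts 1 to 5, against 1.92, 2.33, 2.09, 2.29 and 2.17 on controls 6 to 10. Only knockout 2 lay within the control range (log2 fold change -0.34, SE 0.12, limma adjusted p = 0.227). Without that array the adjusted p was 0.0569, the smallest that any member reached under any setting tried. Sult2a1 and Sult2a3 are hydroxysteroid sulfotransferases of the Sult2a group, which sulfates bile acids and steroids, chiefly in liver. The 9 measured Sult2 genes lie on 1 chromosome, with Sult2b1 apart from the Sult2a genes. Sult2a1 averaged 1.97 ± 0.13 in knockouts and 2.29 ± 0.24 in controls, a difference of -0.33 (SE 0.12, limma adjusted p = 0.250). Sult2a3 averaged 3.53 ± 0.23 in knockouts and 3.17 ± 0.29 in controls, a difference of 0.36 (SE 0.15, limma adjusted p = 0.324). Knockout 5 (2.18) overlapped the controls for Sult2a1, and knockouts 1, 4 and 5 did so for Sult2a3. All 3 of these probe sets had a mean log2 intensity under 5, as did 15 of 21 SULTs and 22 of 53 members. The table has no detection call, so whether such probe sets read above background was not tested. With only genes at a mean of at least 5, the members with an unadjusted p under 0.05 were 2, namely Ugt2a3 and Mgst1.

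**Figure D2:**
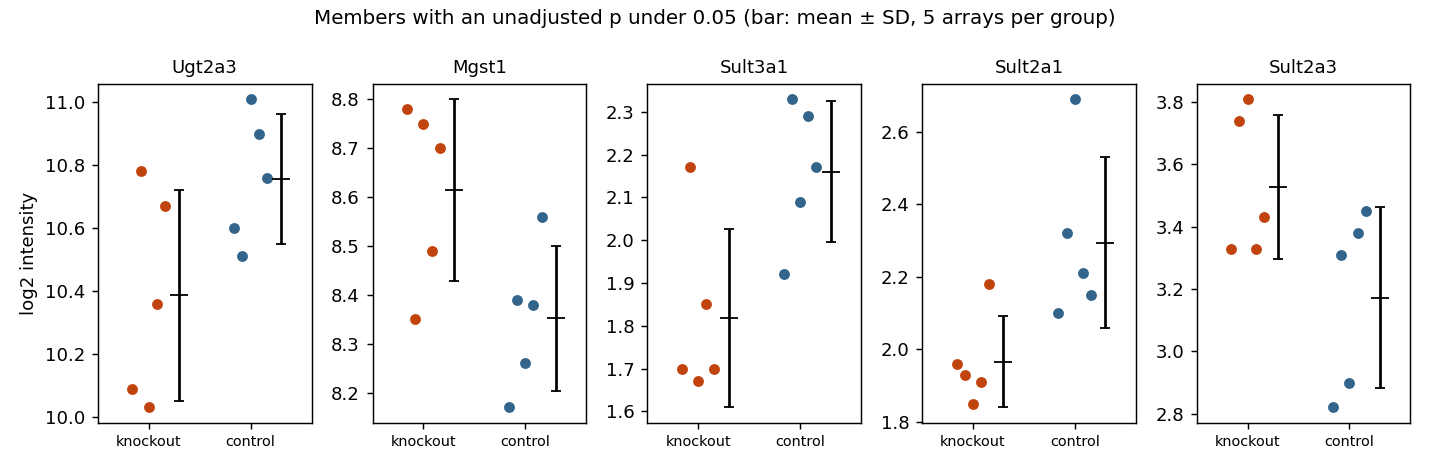
Log2 intensity on each array of the 5 members with an unadjusted p under 0.05, knockout left of control, with bars for mean ± SD of 5 arrays. Each panel has its own axis range, and in each the points of the groups overlap.

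Other sulfotransferases did not reach an unadjusted p of 0.05. Sult1b1, which acts on thyroid hormones and small phenols, averaged 10.47 ± 0.19 in knockouts, against 10.60 ± 0.18 in controls (SD, n = 5 each). Sult1d1, which acts on catecholamines in mice, averaged 11.29 ± 0.20 and 11.39 ± 0.13, and Sult2b1, a cholesterol sulfotransferase, 10.45 ± 0.17 and 10.56 ± 0.17. The phenol sulfotransferase Sult1a1 averaged 6.45 ± 0.15 and 6.33 ± 0.16. Sult1c2 was at -0.36 (SE 0.16, limma adjusted p = 0.363). The largest negative estimates of the family, Sult6b2 (-1.08, SE 1.19) and Sult2a8 (-0.43, SE 0.29), rested on wide spreads. For Sult2a8, control 8 read 4.47 and the other controls 2.65 to 2.99.

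Some of these enzymes differed widely between arrays of the same genotype. Sult6b2 read 5.29, 9.31, 4.70, 9.12 and 6.04 on knockouts 1 to 5, against 10.43, 7.52, 10.51, 5.61 and 5.77 on controls 6 to 10. Knockouts 2 and 4 and controls 6 and 8 were above 9, and the other 6 arrays were at 7.52 or below. The range over the 10 arrays was 5.81 log2 units, or 56.1-fold, and the SD within groups, 2.29, was the third largest of the 22180 genes. Ugt2b5 read 4.54, 7.28, 5.48, 6.88 and 5.94 on knockouts, against 7.79, 5.97, 7.57, 5.51 and 5.17 on controls. Its 4 highest arrays were again knockouts 2 and 4 and controls 6 and 8, and its SD within groups was 1.15, rank 55 of all genes. These arrays were also the 4 highest for Ugt2b35, Gstt1 and Gsta4. Gsta4 read 9.37, 10.00, 9.36, 9.61 and 9.30 on knockouts, against 10.24, 9.32, 9.93, 9.10 and 8.75 on controls. Of the members, 6 had an SD within groups of at least 0.5 (11.3%), against 3.28% of all genes. By family these were 3 of 11 UGTs, 1 of 18 GSTs, 0 of 3 MGSTs and 2 of 21 SULTs.

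The windows of the members with the widest spread are shown for comparison with those above. They are GRCm38.p6 chr6:142804417-142804716 and chr5:87140291-87140590, both on the minus strand, printed as above, and neither holds any of the motifs searched.
Sult6b2: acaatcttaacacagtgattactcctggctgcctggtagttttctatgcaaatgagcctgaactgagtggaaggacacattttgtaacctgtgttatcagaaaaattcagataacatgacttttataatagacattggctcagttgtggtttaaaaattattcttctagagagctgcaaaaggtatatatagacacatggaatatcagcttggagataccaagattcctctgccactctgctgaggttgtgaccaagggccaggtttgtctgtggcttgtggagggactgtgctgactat
Ugt2b5: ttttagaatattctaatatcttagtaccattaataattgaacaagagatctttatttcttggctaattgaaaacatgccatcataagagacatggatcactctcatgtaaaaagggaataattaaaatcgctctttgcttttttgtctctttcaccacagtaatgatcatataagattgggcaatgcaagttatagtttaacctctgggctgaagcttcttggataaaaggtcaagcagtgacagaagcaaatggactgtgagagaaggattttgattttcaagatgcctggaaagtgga

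Scores of some markers of position along the gut and of cell types also differed between these arrays. The centred score of 7 proximal small intestine markers was -0.42, 0.28, -0.49, 0.06 and -0.16 on knockouts 1 to 5, against 0.50, 0.25, 0.37, -0.21 and -0.17 on controls 6 to 10. The arrays with a score above 0 were those that read above 7 for Sult6b2. Single markers of the score did not all go with it. Folh1 was lowest on knockout 2 (3.29), and Cybrd1 read 5.59 on knockout 2 and 5.75 on control 6, against 6.07 on knockout 1. The Paneth cell score stood near 0 for knockout 4, at -1.49 for knockout 2, at -1.57 and -0.78 for controls 6 and 8, and at 0.32 to 1.02 on the others. The score of 12 enterocyte markers had a narrow range, -0.14 to 0.10 in knockouts and -0.05 to 0.12 in controls. That of 6 distal markers ran from -0.48 to 0.72 in knockouts and from -0.43 to 0.65 in controls. Tmprss15, the enteropeptidase of the duodenum, was chosen after its values were seen. It read 4.39, 6.20, 4.57, 6.55 and 4.24 on knockouts 1 to 5 and 9.09, 5.10, 7.61, 4.37 and 4.28 on controls 6 to 10. The part of position or cell makeup in the spread of the conjugating enzymes was not tested.

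**Figure D3:**
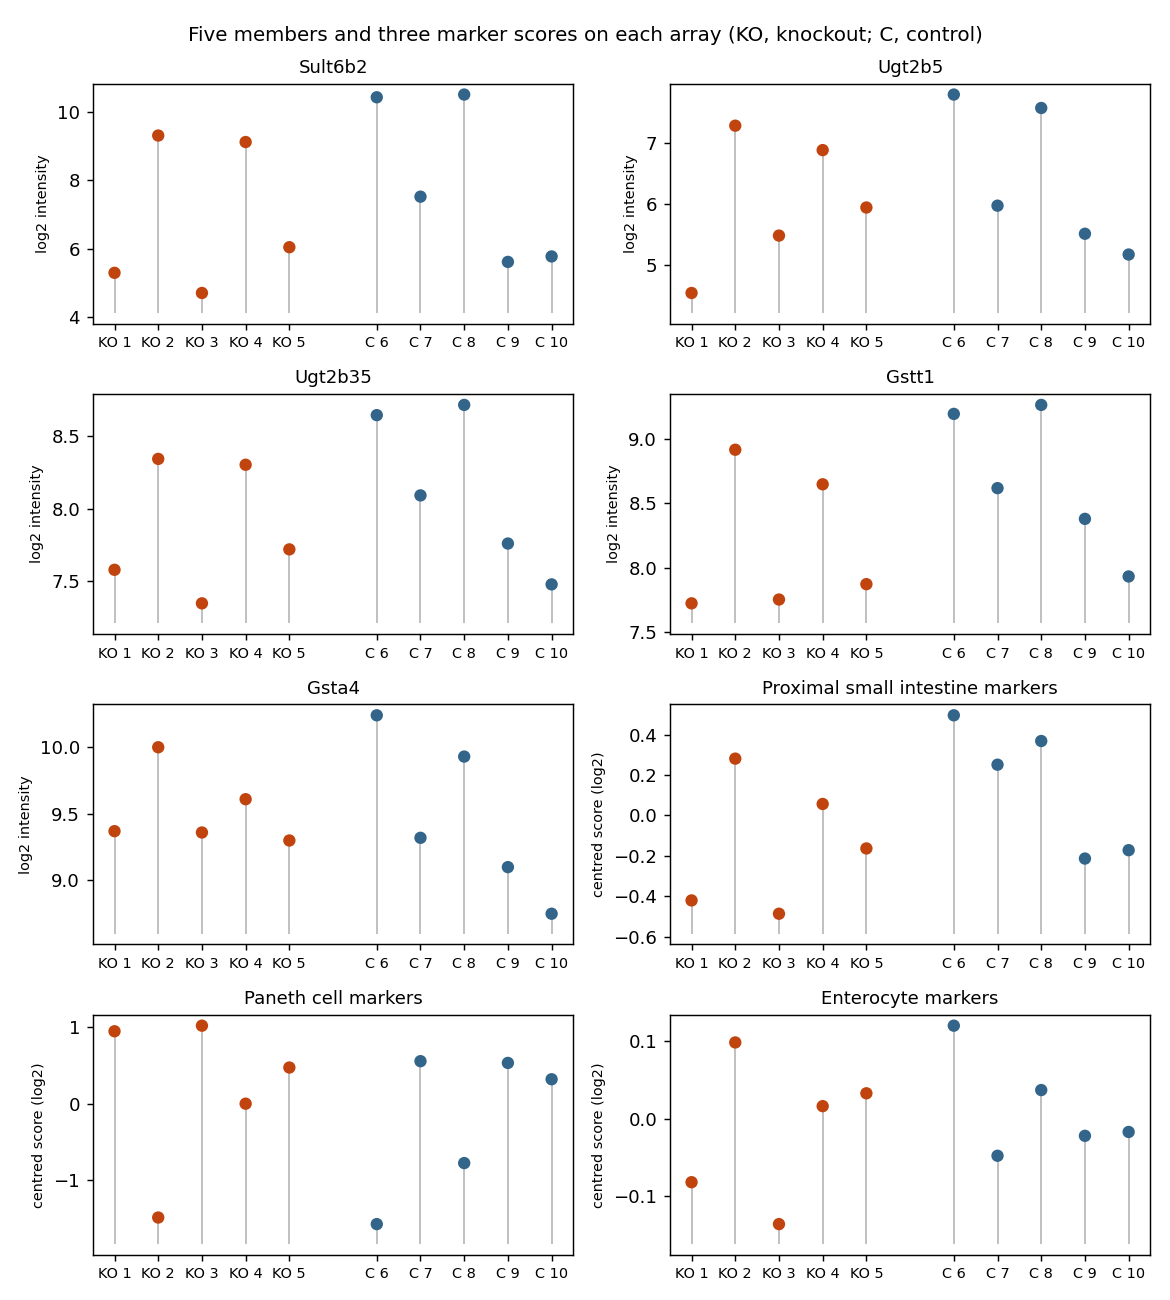
Log2 intensity of Sult6b2, Ugt2b5, Ugt2b35, Gstt1 and Gsta4 and centred scores of proximal, Paneth cell and enterocyte markers on each array, knockouts (KO 1 to 5) left of controls (C 6 to 10); vertical lines only guide the eye and each panel has its own axis range. The 4 highest arrays of each of the 5 genes are knockouts 2 and 4 and controls 6 and 8.

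The proximal marker score differed in mean between the groups, at -0.15 ± 0.32 in knockouts, against 0.15 ± 0.32 in controls (SD, n = 5 each). At an unadjusted p under 0.05, 2 of its 7 genes were lower (28.6%, against 5.56% of all genes). These were Cyp2b10 (-0.77) and Folh1, the latter at a mean of only 3.56 in knockouts and 3.93 in controls. Cyp3a11 was at -0.57 and Onecut2 at -0.40, while Gata4 was at 0.07, Slc40a1 at 0.02 and Cybrd1 at -0.02. A fit with the proximal marker score as a covariate was added after the spread had been seen. In it 14 of 18 GSTs had positive log2 fold changes, with a median of 0.24 against 0.08 without the covariate, and 48.7% of all genes were positive. There were 8 GSTs at an unadjusted p under 0.05, all higher in knockouts, where 7.2% of all genes were higher at that p in the same fit. The 8 were Gstm3 (0.45, SE 0.12), Gsta3 (0.42, SE 0.14), Gstp3 (0.40, SE 0.14), Gstt3 (0.40, SE 0.14), Gstm7 (0.34, SE 0.12), Gstm6 (0.29, SE 0.11), Gsto1 (0.21, SE 0.08) and Gsta4 (0.43, SE 0.17). By limma 0 of them passed after adjustment (0.0361% of all genes did), and the smallest adjusted p was 0.168, for Gstm3. The sign of Gstm6 turned in this fit, since it was at -0.13 (SE 0.26) without the covariate. The UGT family also turned, with 7 of 11 positive and a median of 0.09, against 1 of 11 and -0.05 without the covariate. The UGTs had 0 members at an unadjusted p under 0.05 in this fit, the MGSTs 0 and the SULTs 2, Sult1a1 higher and Sult3a1 lower (5.31% of all genes were lower).

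The count of 8 GSTs depended on the score and on single arrays. The score holds Cyp2b10 and Cyp3a11, drug-metabolising genes whose own log2 fold changes were -0.77 (SE 0.26) and -0.57 (SE 0.31). Without these 2 genes in the score there were 4 GSTs, Gstm3, Gsta3, Gstp3 and Gsto1, against 8.44% of all genes higher, and the median was 0.14. There were also 4 with the Paneth cell score in its place (median 0.12, 9.23% of all genes) and 2 with the enterocyte score (median 0.11, 8.7% of all genes). With the smooth muscle score there were 0 (8.98% of all genes) and the median, 0.06, was below that without a covariate. With the proximal score and 1 array left out, 4 to 9 of 18 GSTs were counted, against 4.68% to 7.81% of all genes higher. The lowest count, 4, came without control 10 (4.68% of all genes). The GST median ran from 0.15 to 0.29.

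**Figure D4:**
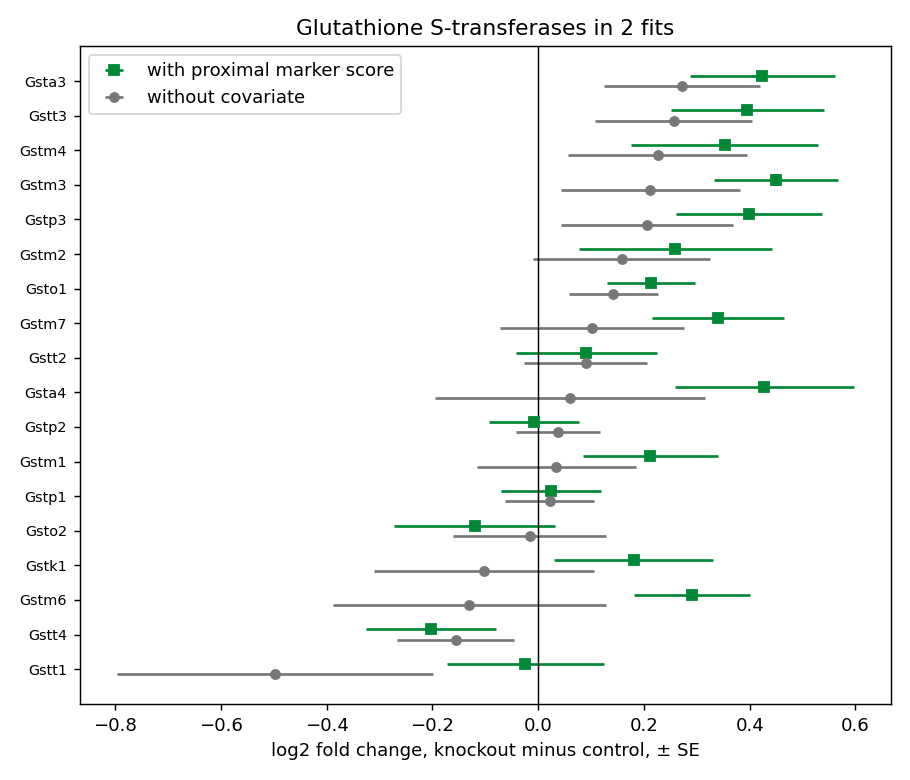
Log2 fold change, knockout minus control, of the 18 glutathione S-transferases without a covariate (circles) and with the proximal marker score as covariate (squares), with bars for SE. The median is 0.08 without and 0.24 with the covariate, and Gsta4, Gstm6 and Gstm3 are among those with higher values with it.

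Genes that supply, control and clear the conjugates were read from 8 lists, and 0 of their genes passed an adjusted p of 0.05 by limma. Of 14 genes of glutathione supply and recycling, 10 had positive values, 5 were higher at an unadjusted p under 0.05 (35.7%, against 8.29% of all genes) and the median was 0.17. Gss, glutathione synthetase, read 8.45 to 8.62 in knockouts and 8.04 to 8.37 in controls and did not overlap (0.35, SE 0.08, limma adjusted p = 0.130). Slc1a4, a transporter of neutral amino acids, was at 0.60 (SE 0.15), Gsr, which regenerates reduced glutathione, at 0.67 (SE 0.18) and the glutathione peroxidase Gpx1 at 0.38 (SE 0.12). Groups did not overlap for 2 of the 14, Gss and Slc1a4, both higher in knockouts (1.64% of all genes were). The subunits of the rate-limiting step of glutathione synthesis, Gclc and Gclm, were at -0.06 (SE 0.18) and -0.07 (SE 0.15). Without knockout 2, Slc1a4 and Gsr were past an adjusted p of 0.05 by limma (adjusted p = 0.0357 and 0.0435), and 452 genes were called in all. Slc1a4 and Gsr were also past it with the enterocyte score as covariate (limma adjusted p = 0.0377 and 0.0309), where 181 genes were called. Gsr was past it with the Paneth cell score as covariate (limma adjusted p = 0.0384), where 227 were called. Under the other alternatives run, neither gene passed. The cell cycle score, which moves with the genotype here, was -0.27 to 0.70 in knockouts and -1.05 to -0.18 in controls, with 10 of 10 markers higher at an unadjusted p under 0.05, and its part in these values was not tested.

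Genes for the donors of the other families were also read, and their counts are to be set against the 8.29% of all genes that were higher and the 5.56% that were lower at an unadjusted p under 0.05. Of 5 genes of glucuronic acid supply 1 was higher at an unadjusted p under 0.05, the transporter Slc35b4 (0.41, SE 0.18), while Ugdh, which makes UDP-glucuronic acid, was at 0.05 (SE 0.19). Of 9 genes of sulfate and PAPS supply 1 was higher, the PAPS transporter Slc35b3 (0.25, SE 0.09), and Papss2, a PAPS synthase, was at -0.08 (SE 0.32). Papss2 read 12.89 and 12.78 on knockouts 2 and 4 and 12.85 and 13.13 on controls 6 and 8, and 11.64 to 12.10 on the other arrays. Those are the arrays with the highest Sult6b2 values.

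Regulators of conjugating enzymes gave few differences. Of 16 measured, 0 were higher and 1 was lower at an unadjusted p under 0.05 (8.29% and 5.56% of all genes), the bZIP factor Maf (-0.29, SE 0.10). Nfe2l2, which encodes Nrf2, was at 0.10 (SE 0.11), the dioxin receptor gene Ahr at 0.13 (SE 0.15) and Nr1i2, which encodes the xenobiotic receptor PXR, at -0.21 (SE 0.12). Of 8 targets used as a reading of Nrf2 and AhR, 1 (12.5%, against 13.9% of all genes) had an unadjusted p under 0.05, Hmox1 at 0.25 (SE 0.11), and the quinone reductase Nqo1 was at 0.31 (SE 0.15).

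Groups did not overlap for 1 of 7 efflux genes, Abcc4, and for 2 of 5 genes that remove conjugates, Gusb and Ces2a. Over all genes 2.6% did not overlap, 1.64% higher and 0.965% lower in knockouts. Abcc4, an efflux pump for organic anions and conjugates, averaged 6.35 ± 0.14 in knockouts and 5.79 ± 0.08 in controls (0.56, SE 0.09, limma adjusted p = 0.0728), and 1 of the other 6 measured efflux genes, Abcg2, had an unadjusted p under 0.05 (0.20, SE 0.08). Together they were 2 of 7 (28.6%), both higher, against 8.29% of all genes. Of the 7, 3 had negative values, Abcc2 (-0.34, SE 0.23), Abcb1a (-0.27, SE 0.15) and Rala (-0.03, SE 0.09). Gusb, the lysosomal glucuronidase, averaged 8.06 ± 0.14 in knockouts and 7.43 ± 0.21 in controls (0.63, SE 0.11, limma adjusted p = 0.107). The carboxylesterase Ces2a averaged 10.02 ± 0.25 in knockouts and 10.62 ± 0.12 in controls (-0.60, SE 0.12, limma adjusted p = 0.111). The remaining removal genes overlapped, Ces2e at -0.17 (SE 0.09), Arsb at -0.07 (SE 0.10) and Arsa at -0.05 (SE 0.09). Without knockout 2, Abcc4, Gusb and Ces2a all passed by limma, with an adjusted p of 0.0188, 0.0357 and 0.0257. In that fit 452 genes were called in all, against 6 with all arrays. Abcc4 and Gusb also passed by limma with the enterocyte score as covariate (adjusted p = 0.0238 and 0.0336, 181 genes called in all). They passed with the Paneth cell score (adjusted p = 0.0192 and 0.0244, 227 called) and the proximal score without P450 genes (adjusted p = 0.0459 and 0.0352, 35 called). Abcc4 passed among genes at a mean of at least 6 as well (limma adjusted p = 0.0388, 6 called). Under the alternatives not named here, Abcc4, Gusb and Ces2a did not pass. Among these were median centring, quantile normalisation, the smooth muscle score, the full proximal score, and any single array other than knockout 2 left out. Of 18 other conjugating or GST-like genes, 3 were higher at an unadjusted p under 0.05 (8.29% of all genes were), namely Gstcd (0.41, SE 0.13), the valyl-tRNA synthetase Vars (0.54, SE 0.18) and the elongation factor subunit Eef1g (0.38, SE 0.16), and 2 were lower (5.56% of all genes were), Alox5ap (-0.28, SE 0.11) and the methyltransferase Inmt (-0.26, SE 0.10). Of these 18 genes, Inmt alone had groups that did not overlap (0.965% of all genes were apart and lower). Vars passed only without knockout 2 (limma adjusted p = 0.0445), where 452 genes were called in all. Alox5ap, which serves leukotriene synthesis, is also expressed in tuft cells. Of 7 tuft cell markers, 7 had negative values and 5 were lower at an unadjusted p under 0.05 (median -0.44), and their score was -0.30 to -0.09 in knockouts, against 0.03 to 0.25 in controls. Its part in the Alox5ap value was not tested.

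Start-site windows of 300 bases were found in RefSeq for 46 of the 53 members. The antioxidant response element core TGACNNNGC was in windows of 3 members, Gsta3, Gstm7 and Mgst1 (6.52%), against 14% of all 27025 genes with a window. The AhR-ARNT core TTGCGTG was in 1, Sult1d1 (2.17%, against 1.35%), a palindromic HNF1 motif in 0 (against 0.0111%), and the CDX motif TTTATNG in 6 (13%, against 12.5%). Both strands were searched, any window of a gene counted, and matches of different motifs did not overlap in the windows printed here. A match is only a run of letters.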

How the data were processed

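RNA of 10 jejunum samples was hybridised to Affymetrix whole-transcript arrays, 1 per sample. The authors deposited intensity values on a linear scale, for which the submitters' processing notes name RMA and, as software, Affymetrix Expression Console 1.4.1.46. Their log2 values lie on steps of 0.01. The annotation gave 1 gene symbol for 23521 of 34472 probe sets, several for 1814 and none for 9137. Only the first kind was used (highest mean where a gene had several), which left 22180 genes; 23328 probe sets matched RefSeq by gene ID. The array's genome build is not given in the sources used here.

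Groups were tested on log2 intensities by the lmFit and eBayes functions of limma (version 3.58.1, under R 4.3.3, two-sided), with Benjamini-Hochberg adjustment over all genes, a threshold of 0.05 and no intensity filter. The script was tested on simulated data. The 5 arrays per group limit the precision. A score is the mean of centred log2 values.

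Named were Pcyt1a, members with an unadjusted p under 0.05 or groups apart, the 3 largest changes per family, 21 measured members of a list of 27, and up to 4 genes per pathway list with an unadjusted p under 0.05 or groups apart. Other genes given a value were chosen after their values were seen. The members and lists were chosen with earlier results of these data known. Alternatives covered normalisation, intensity filters, variance model, array weights, probe set choice, single arrays and tissue makeup.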

Additional observations from a re-analysis of the deposited data

Results flagged for a closer look

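In 160 groups of 5 arrays, 8 held an array whose gap to the nearest of the others, divided by the range of the group, exceeded Dixon's 95% critical value of 0.71, and chance gives about 1 in 20. Among the conjugating enzymes, Gstm4 read 7.09 on knockout 4 and 6.32 to 6.52 on the other knockouts, and Sult1c1 read 4.6 on knockout 3 and 4.00 to 4.15 on the other knockouts. Sult2a8 read 4.47 on control 8 and 2.65 to 2.99 on the other controls, and Sult6b1 read 4.05 on control 6 and 3.70 to 3.79 on the other controls. Among genes of the pathway lists, Gusb read 7.82 on knockout 5 and 8.08 to 8.17 on the other knockouts, and Alox5ap read 6.84 on knockout 5 and 7.04 to 7.10 on the other knockouts. The smooth muscle score was 0.881 on knockout 1 and -0.72 to -0.42 on the other knockouts, and the cell cycle score was -1.05 on control 6 and -0.40 to -0.18 on the other controls.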

How the results depend on the processing

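No member passed an adjusted p of 0.05 by limma under any alternative run. Members at an unadjusted p under 0.05 numbered 5 of 53 (13.9% of all genes). They were 8 with the Paneth cell score (15.3% of all genes) and 10 with the proximal score (12.5% of all genes). There were 2 with quantile normalisation or a mean log2 of at least 5 or 6, 1 without the 3 arrays highest in smooth muscle markers, and 3 to 5 with 1 array left out. For these last settings the share of all genes is not given, so their counts are not read as results about the members. Calls over all genes numbered 6, against 2 with median centring, quantile normalisation or without the smooth muscle arrays, 35 with the proximal score without P450 genes, 69 without the 3 arrays lowest in Paneth cell markers, 181 with the enterocyte score, 227 with the Paneth cell score, and 2 to 452 with 1 array left out, the highest without knockout 2. The UGT median was -0.32 at a mean of at least 6. With 1 array left out, the medians were -0.13 to -0.01 (UGT), 0.03 to 0.16 (GST), -0.0415 to 0.089 (MGST) and -0.12 to -0.09 (SULT); the MGST sign turned without control 8. The causes were not tested.

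The sign turned under at least 1 alternative for 27 of 53 members, and for those named by rule as follows. With the Paneth cell score, Ugt2b5 was at 0.0142, Ugt2b34 at 0.0222, Gstk1 at 0.0262 and Ugt2b36 at 0.14. With the enterocyte score, Ugt8a was at 0.0038, Ugt2b36 at 0.0926 and Ugt2b34 at 0.0112. With quantile normalisation Gstm1 was at -0.0123. With the proximal score, Gstk1 was at 0.18, Sult1b1 at 0.0052, Ugt2b34 at 0.0902, Ugt2b36 at 0.25, Ugt2b5 at 0.58, Ugt8a at 0.0413, Ugt2b35 at 0.14, Sult6b2 at 0.91 and Mgst2 at -0.0027, and without its P450 genes Gstk1 was at 0.0173, Ugt2b34 at 0.0219, Ugt2b36 at 0.0635 and Ugt2b5 at 0.0744. Without the smooth muscle arrays Gsta4 was at -0.0725. Without the Paneth-low arrays Ugt2b36 was at 0.0725, Ugt2b34 at 0.0375, Mgst2 at -0.0408, Gstm1 at -0.0408 and Ugt2b5 at 0.16. With 1 array left out, Gstk1 ran from -0.26 to 0.0015, Ugt2b36 from -0.23 to 0.13, Gsta4 from -0.12 to 0.25, Gstm1 from -0.0655 to 0.13, Gstp1 from -0.0095 to 0.0605, Ugt2b34 from -0.10 to 0.0375, Ugt8a from -0.10 to 0.0565 and Mgst2 from -0.0415 to 0.089. The proximal and Paneth cell score fits were chosen after seeing the data. No paired analysis was possible because the groups share no replicate numbers. Without detection calls, signal over background was not tested.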

Other observations

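There were 9 further probe sets annotated to several genes that include UGTs or GSTs, and these cannot be assigned to 1 gene. They were tested in a limma fit over all 34472 probe sets. Groups did not overlap for 1 of the 9, annotated to 5 UGT genes, against 2.6% of all genes (0.965% lower in knockouts). This probe set read 7.77, 8.08, 8.04, 8.00 and 8.00 on knockouts 1 to 5, against 8.76, 8.23, 8.29, 8.37 and 8.31 on controls 6 to 10. The log2 fold change was -0.41 (SE 0.11, limma adjusted p = 0.199), so it did not pass the test. A probe set annotated to 8 UGT genes was at -0.08 (SE 0.13). One annotated to 2 UGT genes was at 0.09 (SE 0.15), at a mean of only 3.73 in knockouts and 3.64 in controls. The 6 probe sets with GST genes lay between -0.03 and 0.41.

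Slc46a1, the proton-coupled folate transporter of the upper small intestine, was chosen after its values were seen. It read 8.71, 11.44, 8.67, 11.13 and 9.96 on knockouts 1 to 5, against 11.94, 10.81, 11.53, 9.45 and 9.02 on controls 6 to 10. Onecut2, one of the proximal markers, read 6.98, 8.22, 6.38, 8.33 and 7.27 on knockouts, against 8.90, 8.22, 8.94, 6.63 and 6.48 on controls. Both were high on knockouts 2 and 4 and on controls 6 and 8, the arrays on which Sult6b2 and Ugt2b5 were highest. Onecut2 read the same on control 7 as on knockout 2. Both genes were picked with their values known, Onecut2 from 7 proximal markers, so this match tests nothing.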
